A study of Mus musculus with 12 samples.

Results

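Gene expression was compared between cortex of mice in which Cre could remove Tmem173, the gene of the DNA-sensing adaptor STING, and cortex of mice that carried the Cre allele without a floxed target, with both sides of the brain in 1 test. The 12 RNA-seq libraries were chosen by their genotype label and are all 12 of the series. Of these, 6 were labelled CX3CR1cre-er/+ STING fl/fl (cKO) and 6 CX3CR1cre-er/+ (cre wt). Each genotype had 3 contralateral and 3 ipsilateral cortex libraries, numbered 1 to 3 on each side. All samples were labelled CCI (controlled cortical impact, a blow to the opened skull that models head trauma) and 2 hr. The Cre allele in Cx3cr1, the injury and the time were thus shared by both genotypes, and no sham-operated group was analysed here. Strain, age and sex are not given in the sources used here. The sample labels name a Cre that tamoxifen activates (cre-er), the series design names the Cre of the floxed animals without that part, and neither mentions tamoxifen. Neither says whether 2 libraries of equal genotype and number came from 1 mouse, or that different numbers are different mice. The genotype difference was therefore estimated over all 12 libraries with side as a covariate, and again on the mean of both sides for each number, which leaves 3 values against 3. A p-value measures the spread between these libraries only.

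STING sits in the endoplasmic reticulum and, when the enzyme cGAS has detected DNA in the cytosol, starts interferon and NF-kB signalling. Cx3cr1 encodes the fractalkine receptor and is active in microglia (the macrophages that live in brain tissue) and in blood monocytes, so its Cre targets a small share of the cells in a piece of cortex. Glucocorticoid hormones, released after injury and other stress, bind a receptor that enters the nucleus and raises a set of target genes in many brain cell types, among them Fkbp5, Tsc22d3, Zbtb16 and Plin4. In bulk tissue, fewer cells of a type and less RNA per cell cannot be told apart.

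The libraries held 7958931 to 33567194 estimated counts, and 16836 genes passed the filter on low counts. Side accounted for 29.9% of the variance over those genes and genotype for 7.73%. Any split of the libraries takes some share of the variance. The share of an arbitrary split was not computed, so the 7.73% cannot be read as an effect of genotype. The shallowest library, cKO ipsilateral 3, stood apart on the second principal component, and cre wt contralateral 3 on the third. All 18 listed markers of excitatory neurons were measured, and their summed level per number was 6115 to 6559 CPM (estimated counts scaled to library totals) in cKO and 6446 to 6958 CPM in cre wt. In every library the Y-linked Ddx3y was at 27.0 to 41.6 CPM, and Xist, the RNA of the inactive X chromosome, had 0 to 3 counts. Without both libraries that stand apart, edgeR called 0 genes, against 1 with them.

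Tmem173 was measured first, as the check of the labels. Its levels were 0.998, 1.96 and 0.762 CPM in cKO contralateral libraries 1 to 3 and 1.05, 2.44 and 1.24 CPM in the ipsilateral ones. In cre wt they were 2.49, 2.63 and 3.18 CPM contralateral and 2.34, 3.69 and 2.72 CPM ipsilateral. Libraries 1 and 3 of cKO were below every cre wt library on both sides, whereas cKO library 2 on the ipsilateral side, at 2.44 CPM, lay within the cre wt range. The means of the sides averaged 1.41 ± 0.687 CPM (SD over 3 numbers) in cKO and 2.84 ± 0.386 CPM in cre wt and did not overlap. An exact two-sided permutation test over numbers gave p = 0.1, the smallest value that 3 against 3 can give. Over 12 libraries the difference was −1.0 ± 0.24 on the log2 scale (edgeR, mean ± SE), a level of 0.50 of that in cre wt with a 95% interval of 0.350 to 0.715, and an adjusted p of 0.428 over all genes. Transcript from cells that do not use Cx3cr1 is counted too, and the sources do not say which exons are floxed. Cx3cr1 itself averaged 18.9 ± 2.36 CPM in cKO and 21.4 ± 1.34 CPM in cre wt with overlapping values (exact permutation p = 0.3).

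Over both sides, 1 gene passed an adjusted p of 0.05 (0.00594% of the 16836 tested), and it rose in cKO. At an unadjusted p under 0.05, 573 genes were higher (3.40%) and 563 lower (3.34%). The typical difference was small, with a median absolute log2 difference of 0.07, and the median 95% interval of genes with at least 1 CPM reached 0.17 to either side. DESeq2's test on the same libraries called 16 genes, 15 higher and 1 lower, which was Ldlrad3. On the means of both sides per number, limma called 0 genes, 763 (4.53%) had an unadjusted p under 0.05, and the smallest adjusted p was 0.102. Counts summed over sides gave 0 calls with edgeR and 6 with DESeq2, which were Hif3a, Plin4, Fkbp5, Gm49333, Il1a and Kcnq1ot1.

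The called gene was Hif3a (ENSMUSG00000004328, chr7:17031507-17062427, minus strand, GENCODE M21 on GRCm38), which encodes a hypoxia-inducible factor subunit that can restrain the other two. Its levels in cKO were 4.78, 4.22 and 4.86 CPM contralateral and 5.15, 5.45 and 3.98 CPM ipsilateral. In cre wt they were 2.93, 2.70 and 2.58 CPM contralateral and 2.54, 3.18 and 2.47 CPM ipsilateral. Every cKO library was above every cre wt library, and neither side stood out. Hif3a rose 1.75-fold in cKO (95% interval 1.48 to 2.07), a log2 difference of 0.81 ± 0.11 with an edgeR adjusted p of 0.0474. The fit on per-number means gave 0.77 ± 0.13, with an unadjusted p of 7.3e-05 and an adjusted p of 0.307. The call was close to its threshold. It was kept when cKO contralateral 3, cKO ipsilateral 3, cre wt ipsilateral 2, or number 2 or number 3 of cKO on both sides was left out, and lost under each of the other 13 removals, where the adjusted p reached 0.818 while the log2 difference stayed between 0.75 and 0.86.

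Plin4, which encodes a perilipin that coats lipid droplets, came next. Its levels in cKO were 9.36, 8.22 and 5.62 CPM contralateral and 6.85, 7.05 and 7.84 CPM ipsilateral, against 2.24, 4.84 and 3.03 CPM and 2.95, 4.08 and 2.26 CPM in cre wt. All 6 cKO libraries were above all 6 cre wt libraries here too. The log2 difference was 1.21 ± 0.18, 2.31-fold (95% interval 1.77 to 3.02), and the edgeR adjusted p of 0.0503 missed the threshold. The exons of Plin4 overlap those of Hdgfl2 on the other strand, and whether the counting used strand is not given in the sources used here.

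Fkbp5, a chaperone that lowers the hormone affinity of the glucocorticoid receptor, had levels of 63.8, 60.6 and 44.9 CPM in cKO contralateral cortex and 42.4, 48.8 and 35.7 CPM in cKO ipsilateral cortex. The cre wt libraries had 43.0, 46.1 and 33.4 CPM and 24.8, 29.1 and 26.0 CPM. The genotypes did not overlap on the ipsilateral side, and on the contralateral side number 3 of cKO lay within the cre wt range. Its log2 difference was 0.57 ± 0.10, 1.49-fold, with an edgeR adjusted p of 0.212. Cdkn1a, the cell cycle inhibitor p21, differed by 0.33 ± 0.06 at the same adjusted p of 0.212. Cdkn1a read 50.8, 48.2 and 51.5 CPM in contralateral cKO against 37.2, 46.8 and 42.9 CPM in cre wt. On the ipsilateral side Cdkn1a read 88.5, 88.5 and 83.7 CPM in cKO against 65.0, 69.1 and 62.3 CPM in cre wt. The genotypes did not overlap on either side for Cdkn1a.

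**Figure D1:**
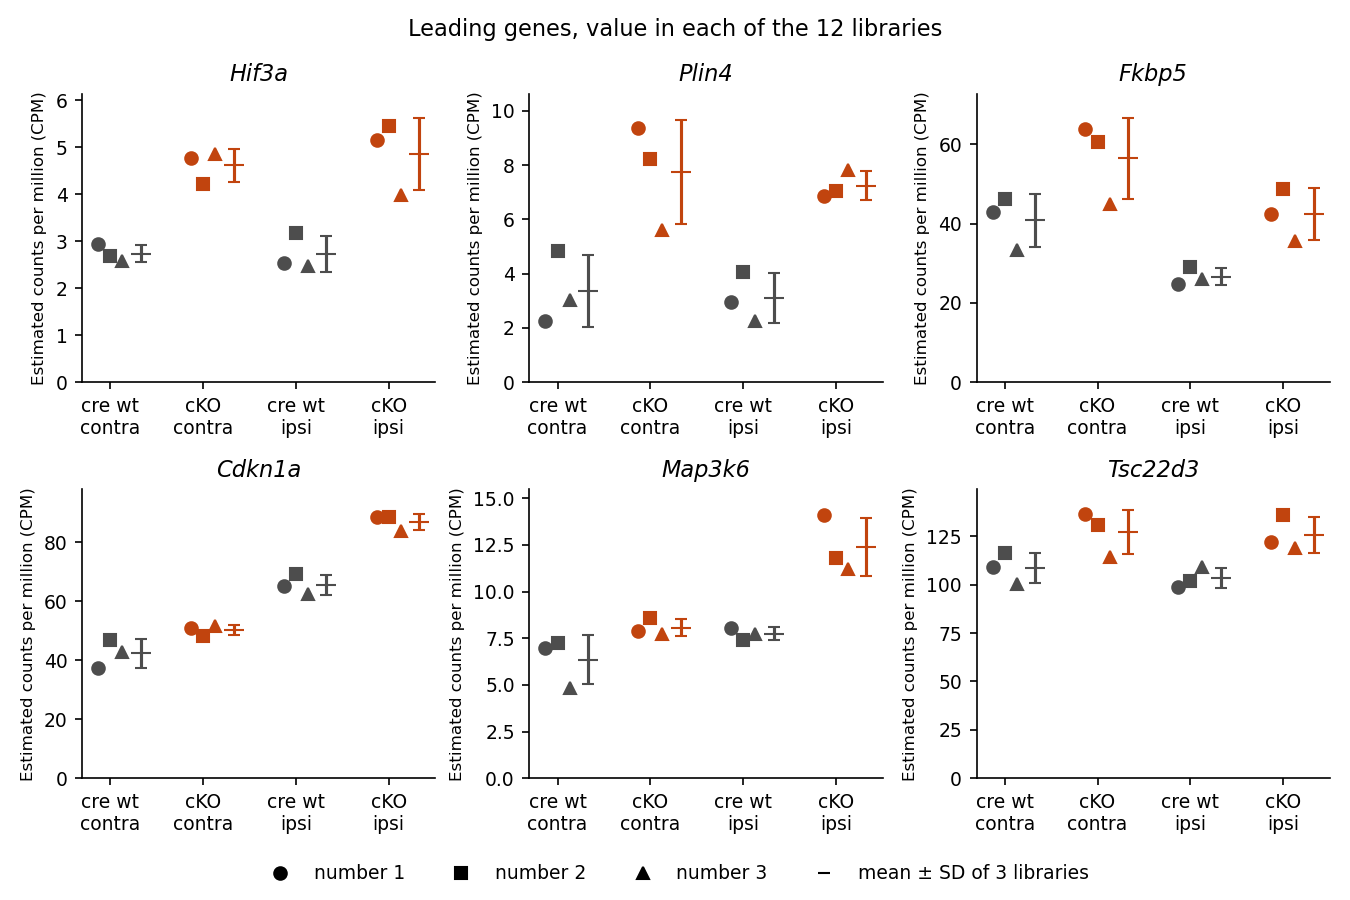
Each panel plots CPM ( linear axis from 0) of a gene in the 12 libraries, with grey for cre wt, orange for cKO, a marker shape for each number and the mean ± SD of 3 libraries beside each group. Hif3a and Plin4 do not overlap between genotypes on either side, while Fkbp5 is lower on the ipsilateral side in both genotypes and Cdkn1a and Map3k6 are higher there.

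Other genes with small p-values were given as values, since none passed the adjusted threshold. Slc7a5, the light chain of a large amino acid transporter, had a log2 difference of 0.24 ± 0.05, with 76.7 to 92.0 CPM in cKO and 66.3 to 75.7 CPM in cre wt. Dpysl2, a protein of growing axons, was at 159 to 195 CPM in cKO and 137 to 163 CPM in cre wt (0.24 ± 0.05). The noncoding Dlx4os stayed under 1 CPM in every library (0.577 to 0.995 in cKO, 0.150 to 0.370 in cre wt). Gm49333 had 0 counts in all 6 cre wt libraries, where 3 counts would be 0.104 to 0.129 CPM, and 0.528, 0.554 and 0.667 CPM contralateral and 0.541, 0 and 1.49 CPM ipsilateral in cKO. Gm49333 shares exons with Alg3, Ece2 and Eef1akmt4, so its reads are uncertain.

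Of the 28 genes listed as glucocorticoid-responsive, all were tested. Hif3a alone was called, 24 had a log2 difference above 0 (8514 of all 16836 genes, 50.6%), and 12 (42.9%) were higher in cKO at an unadjusted p under 0.05, with 0 lower. The same mark was passed upward by 3.40% of all genes. The list's median log2 difference was 0.15, against 0.0015 over all genes. On the means of both sides per number, 10 were higher and 1, Dusp1, was lower at an unadjusted p under 0.05 (all genes 2.22% and 2.32%), and 8 had no overlap between genotypes with cKO above (all genes 4.51%). The list was drawn up with results of these data known, and its genes are not independent of each other. Of its 21 genes that stand on no other list, 9 were higher at that mark, with a median of 0.16.

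The members fell into groups by what they are known to do. Among feedback regulators of the hormone receptor and its signal, Tsc22d3 (GILZ, an anti-inflammatory protein) read 136, 131 and 114 CPM contralateral and 122, 136 and 119 CPM ipsilateral in cKO. In cre wt Tsc22d3 read 109, 116 and 100 CPM and 99.0, 102 and 109 CPM. Only the lowest contralateral cKO value of Tsc22d3, in number 3, fell within the cre wt range (log2 difference 0.26 ± 0.06, unadjusted p = 0.000363). Zbtb16, a transcriptional repressor, read 45.7, 44.7 and 55.2 CPM contralateral and 50.3, 59.2 and 67.0 CPM ipsilateral in cKO against 32.3, 45.8 and 50.3 CPM and 34.5, 39.7 and 42.2 CPM in cre wt. The ipsilateral values of Zbtb16 did not overlap and the contralateral ones did (0.38 ± 0.11). Dusp1, a phosphatase that is also an immediate early gene, differed the other way by −0.15 ± 0.08 with overlapping values.

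Among signalling and metabolic members, Map3k6, a stress-activated kinase, read 7.87, 8.57 and 7.71 CPM in contralateral cKO and 14.1, 11.8 and 11.2 CPM in ipsilateral cKO. In cre wt Map3k6 read 6.97, 7.22 and 4.83 CPM and 8.07, 7.38 and 7.74 CPM. The ipsilateral gap in Map3k6 was the wider (log2 0.69 against 0.34), but the difference between sides had an unadjusted p of 0.11. Slc2a1, the glucose transporter of the blood-brain barrier, read 135 to 203 CPM in cKO and 131 to 163 CPM in cre wt (0.25 ± 0.07). Angptl4, an inhibitor of lipoprotein lipase, was lower in 1 number, with 3.62 and 1.87 CPM in cKO number 3 against 5.21 to 8.07 CPM in the other cKO libraries (0.56 ± 0.26). The metal-binding metallothioneins Mt2 and Mt1 had log2 differences of 0.24 ± 0.09 and 0.15 ± 0.07. The contralateral difference of Mt2 was 0.05 and the ipsilateral 0.44 (unadjusted p = 0.018 for genotype by side in edgeR).

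Lcn2, an iron-scavenging acute phase protein of neutrophils and reactive astrocytes, had the widest difference of the list, 1.82 ± 0.43. It read 2.76, 7.54 and 0.714 CPM contralateral and 19.1, 19.9 and 3.11 CPM ipsilateral in cKO, and 0.967, 0.795 and 0.486 CPM and 4.71, 5.75 and 4.53 CPM in cre wt. Numbers 1 and 2 of cKO were high on both sides, while number 3 lay within the cre wt range on the contralateral side and below it on the ipsilateral side. Without number 3 of cKO, Lcn2 was called by edgeR (adjusted p = 0.00563), and 19 of the 28 genes were higher at an unadjusted p under 0.05. The other removals of a library or number left 9 to 16. When number 2 of cKO was left out, 19 of the 28 genes were above 0, 10 were higher at that mark and 1 was lower, with a median of 0.07. When cre wt contralateral 3 was left out, 10 were higher and 2 lower at that mark. Over all removals the list's median ran from 0.07 to 0.24. The classical targets Sgk1 and Per1 were near 0. Sgk1, a kinase of ion transport, differed by 0.05 ± 0.10 and Per1, a clock gene, by −0.08 ± 0.05, with overlapping values in both.

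**Figure D2:**
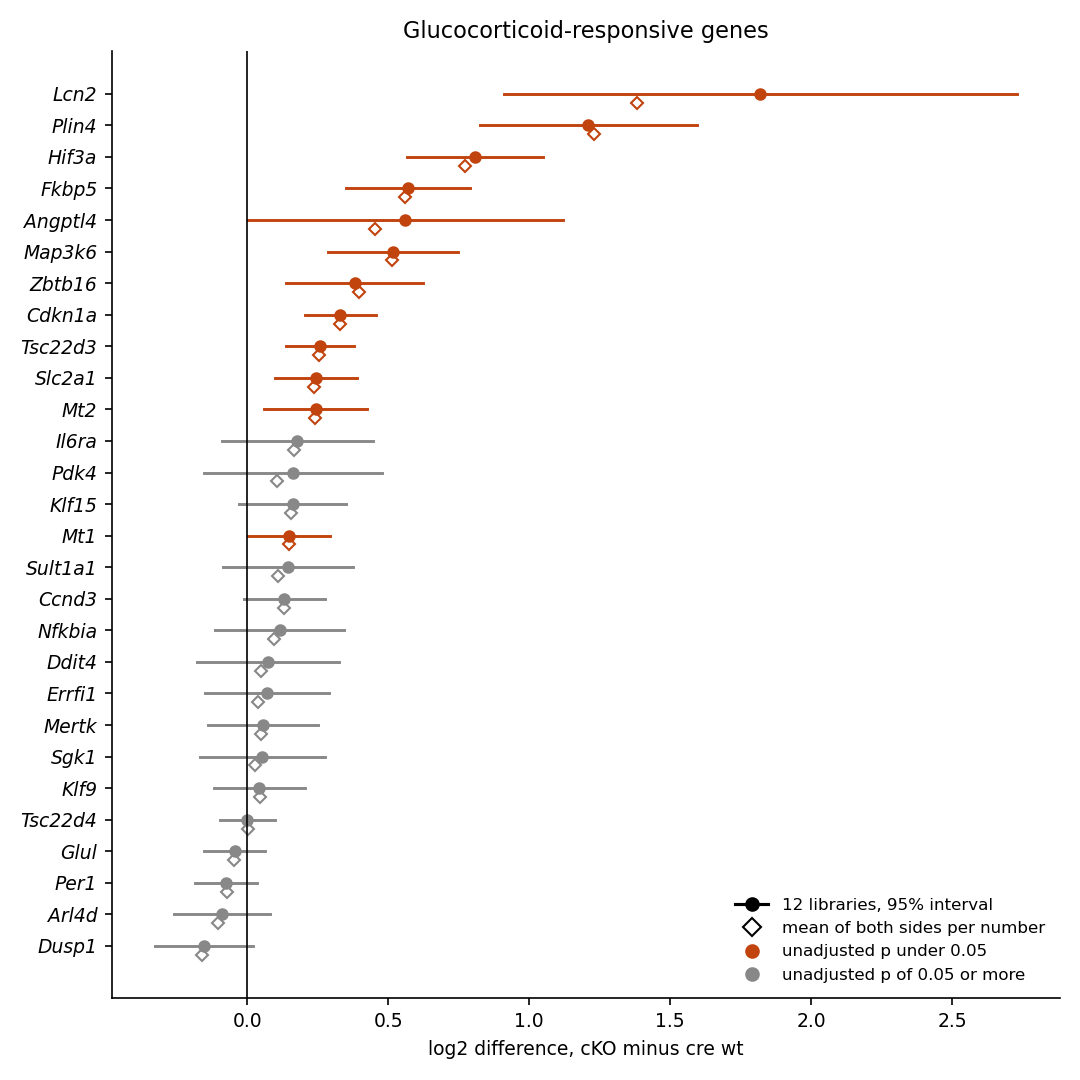
Log2 difference (cKO minus cre wt) of the 28 glucocorticoid-responsive genes, with circles and bars for the 12-library fit and its 95% interval, open diamonds for the fit on the mean of both sides per number, and orange where the unadjusted p of the 12-library fit was under 0.05. The 12 orange genes all lie above 0, from Mt1 at 0.15 to Lcn2 at 1.82, and the 4 genes below 0 have intervals that cross it.

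The glucocorticoid receptor binds DNA as a dimer at paired hexamers, so the 250 bases before each RefSeq start site (GRCm38.p6, written on the gene's strand) were searched on both strands for 2 palindromes and for the hexamer of the stricter one. The palindrome GNACANNNTGTNC was found in 127 of 32817 windows (0.387%) and the stricter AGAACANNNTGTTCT, which contains it, in 3 (0.00914%). The hexamer AGAACA was found in 16.1% of all windows. Of the 28 listed genes 25 had an entry, with 36 windows, and GNACANNNTGTNC was found in 3 of those windows, before Map3k6, Mt1 and 1 start of Sgk1. Only the Sgk1 window held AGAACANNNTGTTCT, and the hexamer AGAACA was in 5 of the 36 windows (13.9%). The 3 windows are shown with the match to GNACANNNTGTNC in capitals, beside the window of Hif3a, the called gene, which held none of the motifs. They lie at chr4:133240568-133240817 (plus strand, Map3k6), chr8:94178839-94179088 (plus, Mt1), chr10:21993640-21993889 (plus, Sgk1) and chr7:17062428-17062677 (minus, Hif3a).
Map3k6: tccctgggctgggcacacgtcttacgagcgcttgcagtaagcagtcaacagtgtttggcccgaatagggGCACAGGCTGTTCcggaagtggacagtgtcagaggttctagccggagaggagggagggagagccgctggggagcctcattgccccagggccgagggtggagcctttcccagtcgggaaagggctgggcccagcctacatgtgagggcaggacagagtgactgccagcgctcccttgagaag
Mt1: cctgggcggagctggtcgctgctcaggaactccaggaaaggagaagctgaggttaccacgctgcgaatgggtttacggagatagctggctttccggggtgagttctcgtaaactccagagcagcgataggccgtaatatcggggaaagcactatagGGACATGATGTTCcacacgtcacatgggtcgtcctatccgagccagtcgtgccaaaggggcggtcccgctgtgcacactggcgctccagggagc
Sgk1: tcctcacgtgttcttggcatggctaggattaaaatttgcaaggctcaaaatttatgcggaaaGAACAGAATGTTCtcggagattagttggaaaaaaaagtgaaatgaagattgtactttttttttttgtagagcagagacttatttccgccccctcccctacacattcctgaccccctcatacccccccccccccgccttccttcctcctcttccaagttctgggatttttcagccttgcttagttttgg
Hif3a: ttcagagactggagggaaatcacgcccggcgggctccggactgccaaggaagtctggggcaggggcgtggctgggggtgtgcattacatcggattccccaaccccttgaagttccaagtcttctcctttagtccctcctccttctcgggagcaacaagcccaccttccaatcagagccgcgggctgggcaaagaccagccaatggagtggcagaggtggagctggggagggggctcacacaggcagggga
The matches end 168, 81 and 175 bases before the start sites of Map3k6, Mt1 and Sgk1. The gene with the stricter palindrome, Sgk1, was the one of these 4 whose difference was nearest 0. A match describes letters in these windows and not binding, and more distant sites were not searched.

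With edgeR 0 genes were called lower in cKO, as against 563 at an unadjusted p under 0.05. Apart from Tmem173, the smallest p-values in that direction belonged to genes of differing level. Ldlrad3, a membrane protein of the LDL receptor family, read 9.72 to 13.6 CPM in cKO and 12.7 to 16.3 CPM in cre wt (log2 difference −0.41 ± 0.09, edgeR adjusted p = 0.353). Adgrl2, the adhesion receptor latrophilin 2, read 55.9 to 66.5 CPM against 64.1 to 85.9 CPM (−0.32 ± 0.07). Fam181a was low throughout, with 1.32, 0.682 and 1.14 CPM contralateral and 0.829, 1.24 and 1.12 CPM ipsilateral in cKO, and 1.62, 1.42 and 1.65 CPM and 2.25, 2.79 and 2.14 CPM in cre wt. All cKO values of Fam181a were below all cre wt values (−0.86 ± 0.20, adjusted p = 0.413).

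Lgr6, a receptor for R-spondins, read 5.10 to 7.50 CPM in cKO and 7.45 to 8.58 CPM in cre wt, and only cKO contralateral 2 exceeded the lowest cre wt value (−0.39 ± 0.10). Sgpp2, a phosphatase of sphingosine 1-phosphate, differed by −0.27 ± 0.07, the nucleolar protein gene Ccdc86 by −0.32 ± 0.08, Cdc42ep1, an effector of the GTPase Cdc42, by −0.26 ± 0.07 and the membrane protein gene Vstm2b by −0.29 ± 0.07. Col3a1, a fibrillar collagen of vessels and meninges, read 2.14, 2.43 and 2.71 CPM contralateral and 1.62, 1.80 and 1.74 CPM ipsilateral in cKO. In cre wt Col3a1 read 3.18, 3.35 and 3.67 CPM and 2.09, 2.53 and 2.96 CPM, so the genotypes did not overlap within either side (−0.52 ± 0.13, adjusted p = 0.428).

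A value over both sides hides unequal sides, so the genotype difference was compared between them. The test of genotype by side called 0 genes with edgeR and with DESeq2, and 381 (2.26%) had an unadjusted p under 0.05. Each side alone gave 0 calls with edgeR, with an unadjusted p under 0.05 in 455 genes contralateral (2.70%) and 987 ipsilateral (5.86%). Of 18 genes with the smallest p over both sides, leaving out Gm49333, all 18 had the same sign on each side, which their choice favours, and 14 differed more on the ipsilateral side. Plin4 differed by 1.21 on each side and Slc7a5 by 0.26 contralateral and 0.23 ipsilateral. The difference in Fam181a was −0.55 contralateral and −1.19 ipsilateral. The smallest interaction p among the 18 was 0.059, unadjusted, for Adgrl2 (−0.18 contralateral, −0.46 ipsilateral).

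**Figure D3:**
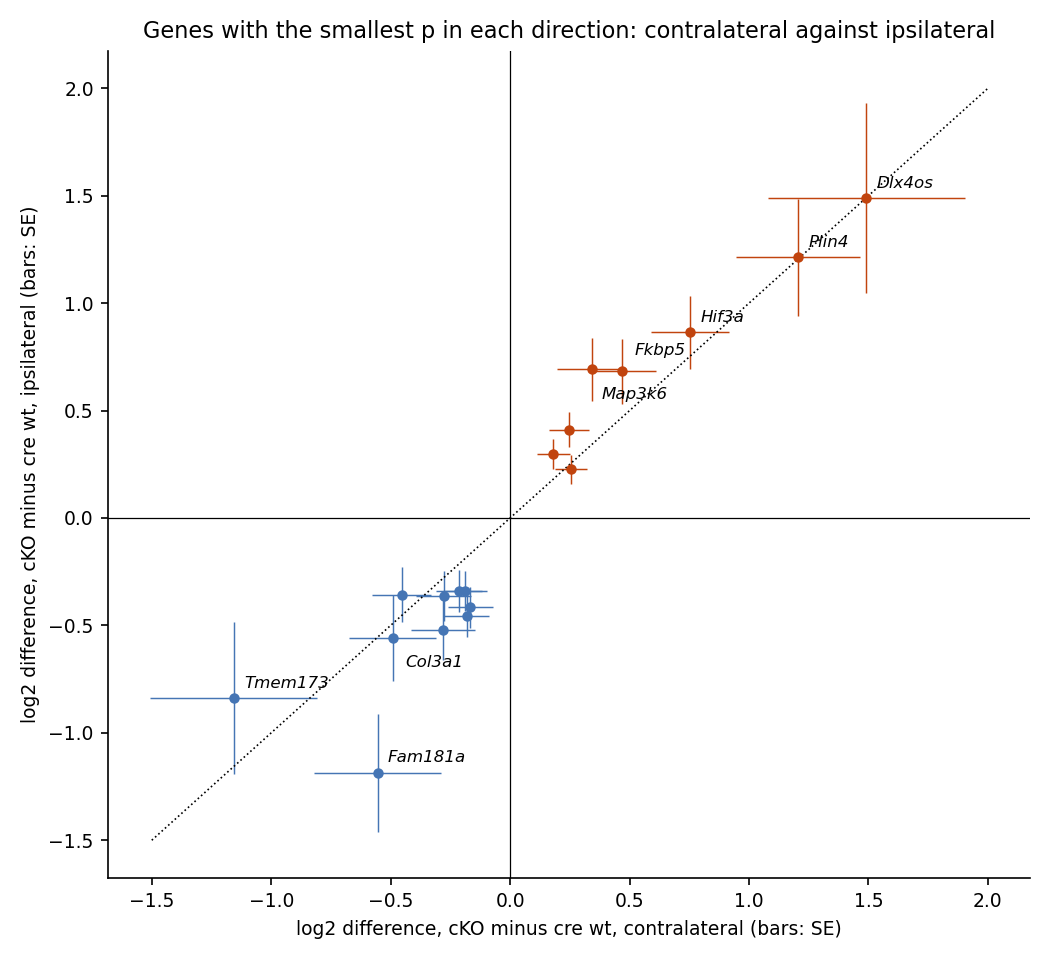
Log2 difference (cKO minus cre wt) on the contralateral side (horizontal) and on the ipsilateral side (vertical) for the 8 genes with the smallest p among those higher in cKO (orange) and the 10 among those lower (blue), with bars for the SE and a dotted line of equality. All 18 points lie in the quadrants of equal sign, and 14 differ more on the ipsilateral side.

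Among listed genes of the STING pathway and of the cells that carry the Cre 0 were called, and microglia identity genes leaned downward. Of 20 genes of STING signalling and cytosolic DNA sensing 0 were called, 8 were above 0 and 12 below, with a median of −0.0047. Besides Tmem173, Enpp1, which breaks down the STING ligand cGAMP outside cells, differed by −0.24 ± 0.10 (unadjusted p = 0.0282). Aim2, a cytosolic DNA sensor of the inflammasome, was higher, at 1.38 CPM on average in cKO and 0.982 CPM in cre wt (0.50 ± 0.21, unadjusted p = 0.0319), and its means per number did not overlap. The fit on per-number means gave Aim2 0.43 ± 0.22 (unadjusted p = 0.0789). Of 34 interferon-inducible genes, 0 had an unadjusted p under 0.05 and the median was 0.02. The smallest p-values there were those of Irf9, a subunit of the interferon-activated factor (0.19 ± 0.09), and Lgals3bp (−0.14 ± 0.07). Of 25 microglia identity genes 19 were below 0, 5 of them at an unadjusted p under 0.05 (20%, all genes 3.34%), with a median of −0.08. Leaving out a library or number gave 1 such gene (without number 1 of cKO) to 10 (without number 1 of cre wt or its ipsilateral library), with medians of −0.14 to −0.04. P2ry12, the ADP receptor of microglial processes, read 20.3, 23.6 and 17.5 CPM contralateral and 11.7, 18.9 and 13.2 CPM ipsilateral in cKO, and 22.7, 20.6 and 29.0 CPM and 21.6, 20.8 and 21.8 CPM in cre wt. P2ry12 overlapped on the contralateral side and not on the ipsilateral (−0.38 ± 0.12). Gpr34, a lysophospholipid receptor, differed by −0.43 ± 0.15, and Cx3cr1 was among the 5. Summed microglial levels per number overlapped, at 1566 to 1722 CPM in cKO and 1564 to 1791 CPM in cre wt. Pf4, a chemokine gene of border macrophages and platelets, differed by −0.74 ± 0.25, the only one of 15 monocyte and border macrophage genes at that mark.

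All 12 measured neutrophil genes were above 0, with a median of 0.66 (0.06 contralateral, 0.82 ipsilateral), and 4 had an unadjusted p under 0.05 (33.3%, all genes 3.40% upward). On per-number means the median was 0.30 and 1 gene, Lcn2, was at that mark. Leaving out a library or number gave medians from 0.21 (without cKO ipsilateral 2) to 1.16 (without number 2 of cre wt) and 1 to 7 genes at that mark. Summed neutrophil levels were 14.3 to 27.4 CPM in cre wt and 19.6 to 48.2 CPM in cKO and overlapped. Cxcr2, the chemokine receptor of neutrophils, was at or near 0 on the contralateral side and at 1.05, 1.96 and 0.622 CPM in ipsilateral cKO against 0.369, 0.730 and 0.699 CPM in cre wt (1.09 ± 0.45). Csf3, the growth factor G-CSF, had 3.89, 4.24 and 0.622 CPM in ipsilateral cKO and 1.07, 1.07 and 0.699 CPM in cre wt, and at most 0.0587 CPM contralateral. In Lcn2, Cxcr2 and Csf3 the ipsilateral excess was in cKO numbers 1 and 2. Number 3, the shallow library that stands apart, had a value within or below the cre wt range for each, and the part of depth in that was not tested. The adhesion molecule Icam1 differed by 0.46 ± 0.16 and Ccl24, a chemokine, by 0.72 ± 0.31, neither called. All 8 measured erythroid genes were below 0 with a median of −1.11, and of −0.77 on per-number means. Of these, 2 had an unadjusted p under 0.05 (25%, all genes 3.34% downward). Leaving out a library or number gave medians from −1.40 (without cre wt ipsilateral 1) to −0.59 (without cre wt contralateral 1) and 0 to 6 genes at that mark. Alas2, the heme synthesis enzyme of red cell precursors, read 9.01, 12.9 and 8.71 CPM in ipsilateral cKO and 9.18, 25.9 and 19.7 CPM in cre wt, and its contralateral values ran from 0.0852 to 0.952 CPM in cKO and 0.112 to 3.38 CPM in cre wt.

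Stress response lists leaned upward. Over all genes, 3.40% were higher at an unadjusted p under 0.05. Of 19 heat shock genes 15 were above 0 and 3 were higher at an unadjusted p under 0.05 (15.8%), among them Hspa1b and Hspa1a, near-identical inducible HSP70 genes whose reads have to be divided. Hspa1b read 15.5, 14.3 and 21.5 CPM contralateral and 64.8, 100.3 and 51.3 CPM ipsilateral in cKO, and 13.8, 10.8 and 12.6 CPM and 33.2, 49.3 and 35.1 CPM in cre wt. The genotypes did not overlap within either side for Hspa1b, which had the smallest p on per-number means (0.64 ± 0.08, limma adjusted p = 0.102). Hspa1a differed by 0.49 ± 0.07 in that fit. Of 20 genes of the unfolded protein and integrated stress response 17 were above 0 and 4 higher at that mark (20%). Atf4, the transcription factor of that response, read 135 to 164 CPM contralateral in cKO and 121 to 142 CPM in cre wt (0.18 ± 0.06), and Sesn2, its target that restrains mTORC1, differed by 0.26 ± 0.07. Without number 3 of cKO on both sides, 8 of 19 heat shock genes and 12 of 20 stress response genes were above 0. Without number 2 of cKO, 6 heat shock and 7 stress response genes were higher at that mark.

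Lists of vessel, meningeal, striatal and mitochondrial genes leaned downward, with none called. Over all genes, 3.34% were lower and 3.40% higher at an unadjusted p under 0.05. All 14 mural cell genes were below 0 (median −0.14), 3 of them at an unadjusted p under 0.05, including the pericyte peptidase gene Anpep (−0.46 ± 0.15) and the smooth muscle actin gene Acta2 (−0.34 ± 0.13). Leaving out a library or number gave 0 (without number 3 of cre wt) to 6 (without cre wt ipsilateral 1). Of 22 meningeal and fibroblast genes 19 were below 0 (median −0.19), with Igfbp2 at −0.30 ± 0.12 beside Col3a1, and 4 were lower at that mark. Their median ran from −0.29 (without number 2 of cKO) to −0.06 (without number 1 of cKO), and 1 to 12 were lower at the mark, 12 without cre wt ipsilateral 1. Endothelial genes were divided, with 5 of 20 lower and 2 higher at that mark. The 2 were Slc2a1 and Mfsd2a, a lipid transporter of the blood-brain barrier (0.27 ± 0.07). Without number 3 of cre wt, 4 endothelial genes were higher and 2 lower, and over all removals 2 to 5 were higher and 2 to 7 lower. Of 18 markers of the striatum, which lies below the cortex, 14 were below 0, with Scn4b at −0.32 ± 0.09 and Pde10a at −0.26 ± 0.11, and removals left 1 to 6 lower at the mark. Summed striatal levels per number were 627 to 682 CPM in cKO and 711 to 766 CPM in cre wt and did not overlap. Means per number did not overlap, with cKO below, in 4.53% of all single genes. Summed hypoxia-inducible levels did not overlap either, with cKO above (1612.5 to 1670.5 CPM against 1574 to 1608 CPM). The part of the striatal levels in other differences was not tested. Of 13 mitochondrially encoded genes 7 were lower at that mark (53.8%), with mt-Cytb at −0.26 ± 0.09 and mt-Nd6 at −0.23 ± 0.08. Without both libraries that stand apart, 0 of the 13 mitochondrial genes were lower at that mark, as without number 1 or number 3 of cKO, and the other removals left 1 to 8.

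Medians of neuronal, astrocyte and oligodendrocyte lists lay near 0. At an unadjusted p under 0.05, 3.40% of all genes were higher and 3.34% lower. Of 36 immediate early genes 18 were above 0 and 18 below, and 3 were lower and 0 higher at that mark (8.33%). Removal of number 3 of cKO left 8 of them above 0, with 7 lower and 1 higher at that mark. Removal of number 1 of cKO left 23 above 0. Of 18 excitatory neuron genes 2 were lower at that mark and 0 higher. Fos read 33.1, 41.2 and 40.1 CPM contralateral and 263, 310 and 319 CPM ipsilateral in cKO, and 37.7, 46.5 and 56.0 CPM and 343, 355 and 325 CPM in cre wt. The ipsilateral Fos values did not overlap between genotypes (−0.24 ± 0.08), and Dusp6, a phosphatase that limits ERK signalling, differed by −0.32 ± 0.11. Of 20 interneuron and neuropeptide genes 1 was higher at an unadjusted p under 0.05, Cort, and 4 were lower, led by Npy, neuropeptide Y (−0.25 ± 0.08). Of 16 astrocyte genes 1 was lower, S100b (−0.14 ± 0.05). Of 19 hypoxia-inducible genes 1 was higher, Slc2a1, and 1 lower, Egln3, an oxygen-sensing hydroxylase (−0.30 ± 0.10). Of 20 oligodendrocyte genes 0 were at that mark and 7 were above 0. Over all removals 0 (without number 1 of cKO) to 12 of them were above 0. Removal of number 1 of cre wt left 1 above 0 and 2 lower at that mark.

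**Figure D4:**
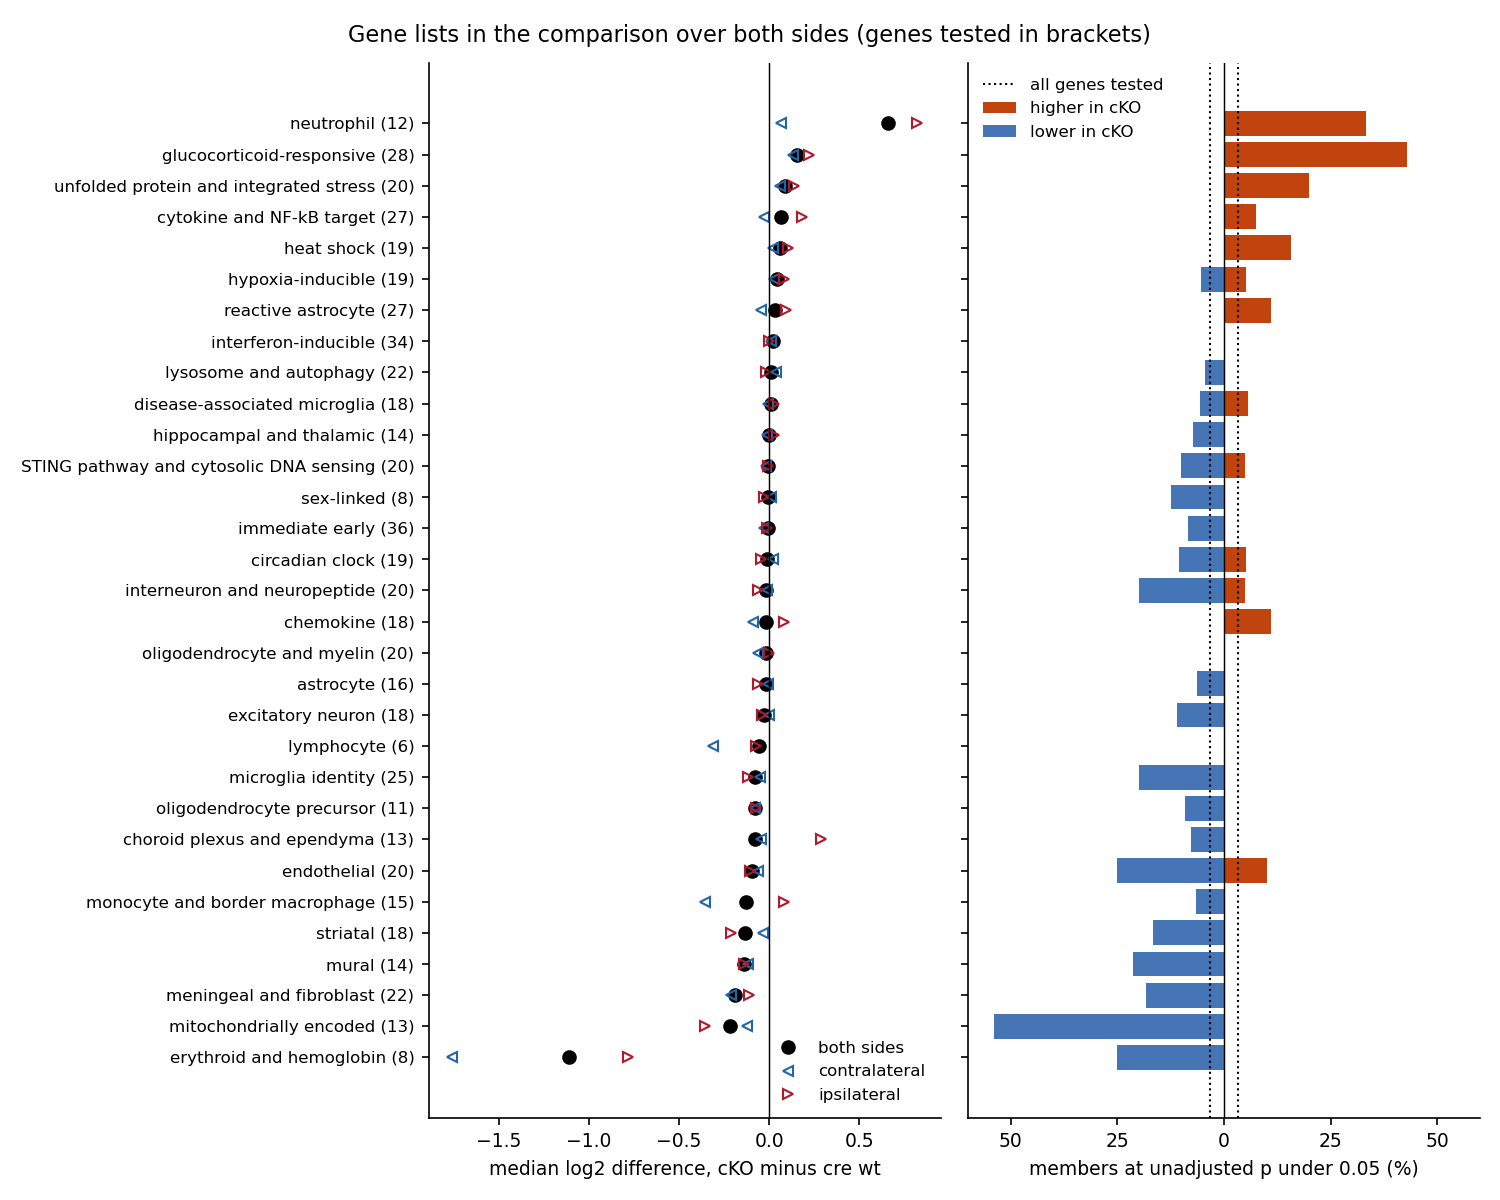
Left, the median log2 difference (cKO minus cre wt) of the tested members of each of 31 gene lists, over both sides (black) and for each side (triangles). Right, the percentage of members higher (orange) or lower (blue) in cKO at an unadjusted p under 0.05, with dotted lines at 3.40% and 3.34% for all genes. Glucocorticoid-responsive genes have the widest orange bar (42.9%), with neutrophil genes at 33.3%, and mitochondrially encoded genes the widest blue bar (53.8%). The lists were chosen with earlier results of these data known, so the widths of the bars are not independent of that choice.

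The numbers were then looked at as possible animals. After group means were removed, contralateral and ipsilateral libraries of equal number correlated across genes at 0.0705, 0.0920 and 0.0568 in cKO and at −0.0020, 0.0941 and 0.0457 in cre wt. Among the cKO libraries of the other side, each was closest to its own number. In cre wt, contralateral 1 was closer to ipsilateral 2 (0.0460) and contralateral 3 to ipsilateral 1 (0.0606), and libraries of unequal number in the 2 genotypes correlated at up to 0.129. Single genes showed the likeness more plainly. Ide, the insulin-degrading enzyme (chr19:37268743-37337852), read 81.8, 39.5 and 80.2 CPM contralateral and 79.9, 38.2 and 75.1 CPM ipsilateral in cKO numbers 1, 2 and 3, and 33.6 to 40.8 CPM in all cre wt libraries. Wdfy1, an endosomal adaptor (chr1:79702262-79776143), read 11.0, 25.3 and 11.4 CPM and 12.3, 25.9 and 12.1 CPM in cKO, and 21.5 to 26.9 CPM in cre wt. In both genes the 2 libraries of cKO number 2 were close to each other and to cre wt, and those of numbers 1 and 3 stood apart on both sides. These genes were chosen after their values were seen.

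Gabra2, a subunit of the GABA-A receptor (chr5:70957597-71095849), read 40.3, 70.1 and 46.5 CPM contralateral and 33.2, 72.2 and 42.9 CPM ipsilateral in cKO, and 62.9 to 87.4 CPM in cre wt. Gm17081 on chr4, in a cluster of near-identical predicted genes whose reads are uncertain, read 10.2, 2.98 and 9.91 CPM and 9.05, 2.96 and 9.33 CPM in cKO, and 2.76 to 4.15 CPM in cre wt. Cort, the neuropeptide cortistatin, had 5.31, 2.13 and 7.57 CPM and 5.62, 2.68 and 6.97 CPM in cKO and 2.72 to 3.91 CPM in cre wt. In each of these, as in Tmem173, the libraries of cKO number 2 were on the cre wt side of numbers 1 and 3. A number of cre wt was low on both sides for Eif2s3y, a Y-linked translation factor subunit. Its levels were 3.37 and 7.41 CPM in number 3 against 15.5 to 21.3 CPM in the other cre wt libraries. Ddx3y, also Y-linked, was not low there, at 38.2 CPM in both libraries of number 3 against 27.0 to 41.6 CPM in the other cre wt libraries.

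When cKO number 2 was left out on both sides, the fit on per-number means called 18 genes (13 higher, 5 lower) and the fit over libraries 27, against 0 and 1 with it. Tmem173 was among the 18, at −1.42 ± 0.19 (limma adjusted p = 0.0241). Ide was at 1.05 ± 0.07 (adjusted p = 0.000222) and Wdfy1 at −1.03 ± 0.10 (0.00226). The removal of number 2 chose these 18 genes, so the place of number 2 in them is no separate result. Hif3a differed from these genes, since its levels in number 2, 4.22 CPM contralateral and 5.45 CPM ipsilateral, were above every cre wt library.

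**Figure D5:**
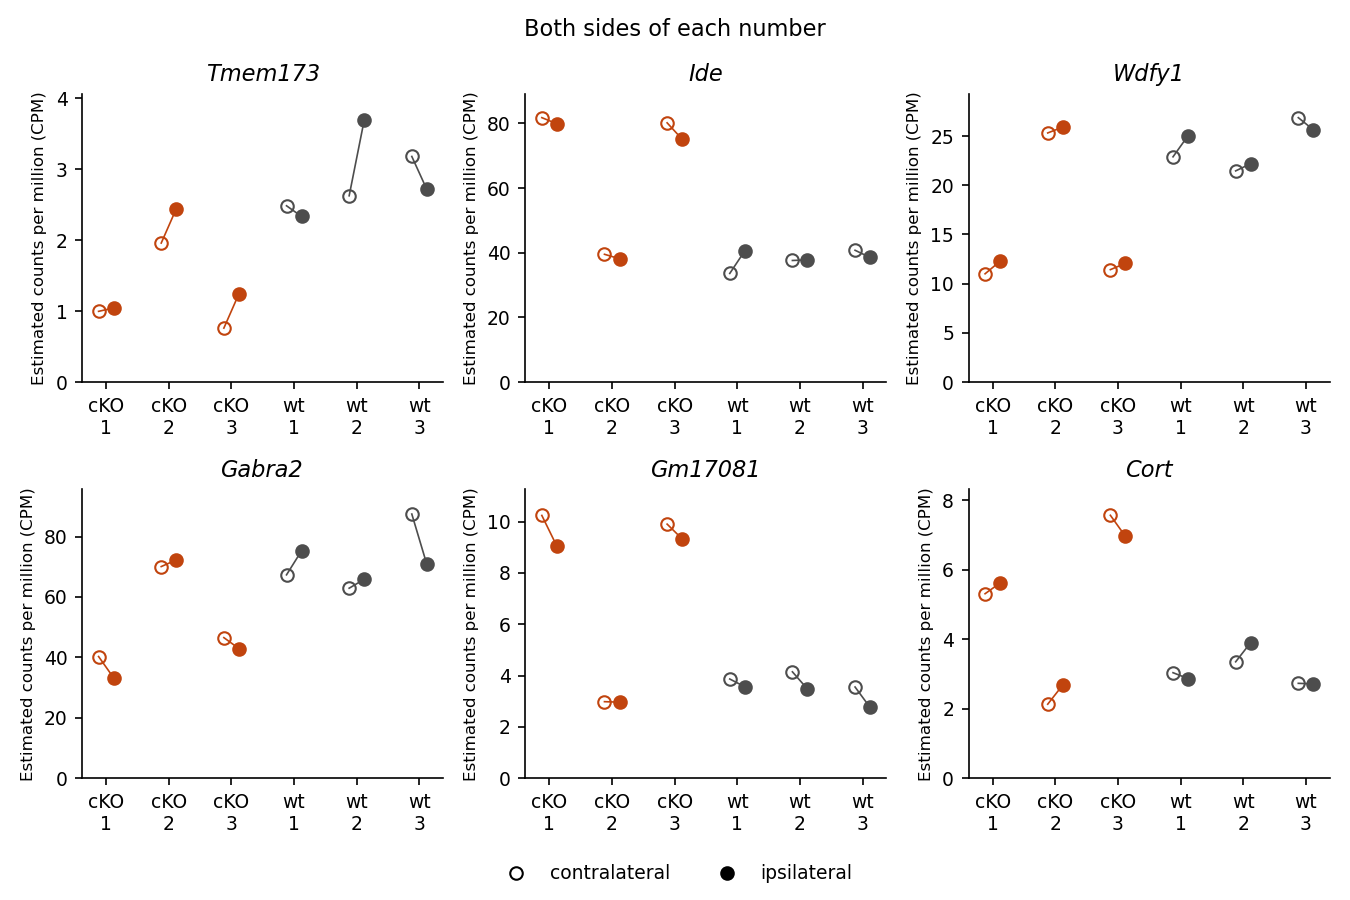
CPM ( linear axis from 0) of 6 genes by genotype and number, with an open circle for the contralateral and a filled circle for the ipsilateral library of each number. In Ide, Wdfy1, Gabra2, Gm17081 and Cort both libraries of cKO number 2 lie with the cre wt libraries or beyond them, away from numbers 1 and 3, and in Tmem173 they are the highest of cKO.

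Genes beside the targeted locus were counted, since sequence near a modified allele is inherited with it. Within 10 Mb of Tmem173, 181 genes were tested, 0 were called and 9 (4.97%) had an unadjusted p under 0.05, against 6.75% of all genes. Within 2 Mb these were 8 of 103 (7.77%). The smallest p there was that of Dnd1 (chr18:36763671-36766214), a germ cell RNA-binding protein gene. It read 0.498 to 0.841 CPM in cKO and 0.242 to 0.494 CPM in cre wt, a difference of 1.10 ± 0.24 (edgeR adjusted p = 0.392), and its exons overlap Wdr55 on the other strand. Within 10 Mb of Cx3cr1, whose modified allele both genotypes carry, 8 of 152 genes (5.26%) were at that mark.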

How the data were processed

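RNA was extracted with Trizol and a column kit and made into stranded mRNA libraries, per the labels' protocols. The submitters' processing notes name Trim Galore 0.6.4, STAR 2.7.1a, RSEM 1.2.28, DESeq2 1.36.0 and the mm10 build. The authors deposited estimated counts per gene, which are whole numbers, and TPM values that were used as an alternative. Of 55487 gene IDs, 99.5% matched GENCODE M21. The members and gene lists were chosen with earlier results of these data known.

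Counts were scaled by TMM and filtered with filterByExpr (minimum count 10, minimum total 15), which kept 16836 genes. edgeR 4.0.16 (R 4.3.3) fitted side and genotype with its quasi-likelihood test. limma 3.58.1, with a mean-variance trend, tested the mean over sides of log2 CPM (prior count 2) per number. P-values were adjusted by Benjamini-Hochberg over all genes at 0.05. Tmem173 and Cx3cr1 were compared by exact permutation over numbers. DESeq2 1.42.0, voom, other scalings and filters, TPM, and the removal of each library or number were alternatives.

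Named genes were Tmem173, Cx3cr1, the called gene, the 10 smallest p-values in each direction and, for a list with no called member, up to 2 with the smallest p. Of these, 1 is not reported here. Other glucocorticoid-responsive genes, Aim2, Dnd1 and the genes that set numbers apart were added after their values were seen. The code was tested on simulated counts. Samples of equal number in the 2 genotypes did not vary together (r = 0.0723, −0.0531 and 0.0612), so numbers were not used as pairs. No 2 libraries of 1 genotype and side agreed within sampling noise. Precision rests on 3 numbers per genotype and on depth, with 3 counts equal to 0.0881 to 0.373 CPM.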

Additional observations from a re-analysis of the deposited data

Results flagged for a closer look

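After side means were removed, 138 sets of 6 libraries (69 named genes in 2 genotypes) were searched for a library apart from the rest, and 1 was found. For 6 independent values the cutoff flags about 1 set in 20 by chance alone. That rate was not checked for values with side means removed, and 1 in 138 is below it. Csf3, the growth factor of neutrophils, was at 0.699 CPM in cre wt ipsilateral library 3, against 1.07 CPM in each of the other 2 ipsilateral cre wt libraries. In cKO the ipsilateral Csf3 values spread more widely, from 0.622 to 4.24 CPM.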

How the results depend on the processing

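The count of called genes moved with nearly every choice. Over 12 libraries it was 1, and became 0 with DESeq2 size factors, a strict filter, limma on log2(TPM + 1) or log2(TPM + 0.5), a random effect for genotype and number, no side covariate, the 4-group model, or without both libraries that stand apart. It was 2 with library totals and with limma-voom, which called Hif3a and Plin4, 16 with DESeq2's test and 207 (113 higher, 94 lower) with no filter on low counts. Leaving out a library or number gave 0 to 27. With a replicate block it was 3 (Fkbp5, Hif3a and Plin4), although numbers did not pair the genotypes, and 0 on per-number means. Per-number means gave 6 calls with summed counts in DESeq2, 1 with library totals (Hspa1b), 0 with the other 5 settings of scaling, filter, prior or test, and 0 to 18 without a number. The genotype by side test gave 0 throughout. Without a library or number, 9 to 19 glucocorticoid-responsive genes were higher, and 8 to 13 under the other settings. Per1 turned to 0.0418 and 0.0421 on the TPM scales, and Sgk1 ran from −0.0368 to 0.212 (−0.0346 without cKO number 2) when a library or number was left out. The median of all genes was 0.0015 with TMM, −0.0017 with DESeq2 size factors and 0.0249 with library totals. The cause of these shifts was not tested. In the 12-library fit the median 95% interval of genes with at least 1 CPM reached 0.17 (log2) to either side.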
